A study of Mus musculus with 8 samples.

Results

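Expression of 10 genes for the uptake, storage, export and sensing of iron was examined in B16F10 cells, a pigmented mouse melanoma line grown in culture. The genes were taken by symbol: *Tfrc*, *Steap3* and *Slc11a2* for uptake, *Fth1*, *Ftl1* and *Ncoa4* for storage, *Slc40a1* for export, *Hmox1* for release of iron from heme, and *Aco1* and *Ireb2* for sensing. Each symbol matched a single row among the 55414 genes of the table, and all 10 passed the filter of at least 1 TPM in at least 2 libraries that 13526 genes passed. TPM is a relative transcript level, scaled within each library and corrected for transcript length, so levels of different genes can be set side by side.

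RNA was sequenced in 8 libraries, 2 for each of 4 groups. WT cells and CypD KO cells, in which *Ppif* had been disrupted with CRISPR/Cas9 and stable clones selected with puromycin, were kept at 21% oxygen for 24 h. Control cells carrying the empty pcDNA plasmid and CypD OE cells carrying pcDNA-CypD, both stable lines selected with G418, were kept at 1% oxygen for 24 h. *Ppif* encodes cyclophilin D (CypD), a mitochondrial matrix protein that regulates opening of the permeability transition pore. CypD KO was therefore compared with WT, and CypD OE with Control, at a single oxygen level. No transfection or selection is stated for WT, so in CypD KO minus WT the knockout, transfection and selection of clones cannot be told apart. CypD OE and Control are separate stable lines, so the plasmid and other differences between the lines cannot be told apart either. Control and WT differed in oxygen and in plasmid and selection, which cannot be told apart. All cells are derivatives of 1 tumor line, and how many clones stand behind each group is not given in the sources used here.

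Cells take up iron mainly as transferrin bound to the transferrin receptor (*Tfrc*), reduce it in the endosome with STEAP3 and pass it to the cytosol through DMT1 (*Slc11a2*). Surplus iron is stored in ferritin, a shell of heavy (*Fth1*) and light (*Ftl1*) chains that NCOA4 delivers to the lysosome for breakdown, or leaves through ferroportin (*Slc40a1*). Heme oxygenase 1 (*Hmox1*) frees iron from heme. The iron regulatory proteins IRP1 (*Aco1*) and IRP2 (*Ireb2*) bind hairpins called iron-responsive elements when iron is scarce. Bound to a 5′ UTR they block translation, and bound to the *Tfrc* 3′ UTR they protect the mRNA from decay, so that mRNA levels of the ferritin genes do not report ferritin synthesis.

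These hairpins are shown because they are the elements that the regulatory proteins bind. The search below finds letters that match such an element, and no binding was measured. In the GRCm39 genome with the GENCODE vM39 annotation, the UTRs of each gene's canonical transcript were searched on the transcript's strand. A match was the loop CAGTGN closed by an upper stem of 5 pairs and a lower stem of 5 pairs, with an unpaired C between them on the 5′ side, G-T pairs allowed and at most 1 mismatch. Matches were found in 29 of 21593 protein-coding genes (0.134%) and in 4 of the 10 members, with the loop in capitals below.
Tfrc 3′ UTR, chr16:32450038-32450064, plus strand: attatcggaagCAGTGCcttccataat
Tfrc 3′ UTR, chr16:32450417-32450443, plus strand: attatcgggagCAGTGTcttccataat
Tfrc 3′ UTR, chr16:32450482-32450508, plus strand: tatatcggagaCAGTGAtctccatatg
Tfrc 3′ UTR, chr16:32450529-32450555, plus strand: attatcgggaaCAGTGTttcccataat
Fth1 5′ UTR, chr19:9960097-9960123, plus strand: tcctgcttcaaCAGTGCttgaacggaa
Ftl1 5′ UTR, chr7:45109204-45109230, minus strand: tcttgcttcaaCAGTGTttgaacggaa
Slc40a1 5′ UTR, chr1:45964626-45964652, minus strand: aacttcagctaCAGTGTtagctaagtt

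*Tfrc* held 4 matches in its 3′ UTR, whereas *Fth1*, *Ftl1* and *Slc40a1* each held 1 in the 5′ UTR. The *Fth1* and *Ftl1* hairpins were identical at 25 of 27 bases, including the whole upper stem, and each had 1 mismatched pair. For *Slc11a2* the canonical transcript held no match, and gene-level values cannot separate its isoforms with and without such an element.

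*Ppif*, the targeted gene, was read at 50.68 and 49.99 TPM in WT against 10.44 and 12.11 TPM in CypD KO libraries, which left 22.4% of the WT mean. In the libraries labelled CypD OE it was 50.29 and 49.28 TPM, against 44.59 and 42.25 TPM in Control, a ratio of 1.15 that missed the threshold (limma adjusted p = 0.0794), so the label is used here as a name only. By western blotting, the paper reports that CypD protein was absent from the knockout clones and raised in the overexpressing clones. The values here are gene-level mRNA, which does not measure the protein. Whether the blotted and sequenced cultures were the same is not stated. All 7 melanocyte markers were above 1 TPM, with sums of 12430 to 20980 TPM per library. Macrophage markers summed to 1.87 and 2.28 TPM in CypD KO and at most 0.73 TPM in other libraries, and erythroid markers to at most 0.7 TPM, with 4 of 7 genes in each list at 0 in every library, including *Adgre1* and *C1qa* of macrophages and the hemoglobin genes. Hepatocyte markers reached at most 0.35 TPM. Fibroblast markers summed to 15.6 and 17.7 TPM in WT, 34.16 to 37.19 TPM in CypD KO, 18.98 to 20.97 TPM in Control and 9.23 to 11.35 TPM in CypD OE libraries, with *Dcn* at 0 in all of them. By the steps between low values, 1 fragment on a gene of 1000 bases was worth 0.0815 to 0.0975 TPM, so depth was similar in the 8 libraries.

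Of the 10 iron genes, 7 passed the test between CypD KO and WT cells, 4 higher (*Tfrc*, *Slc40a1*, *Steap3* and *Hmox1*) and 3 lower (*Fth1*, *Ftl1* and *Ireb2*). The background was high, since 48.4% of all genes tested passed, 30.1% as higher and 18.4% as lower, and under median-of-ratios rescaling the split of all genes turned from 4066 higher and 2486 lower to 3187 higher and 3482 lower. Between CypD OE and Control cells 8 passed, 3 higher (*Fth1*, *Slc40a1* and *Steap3*) and 5 lower (*Tfrc*, *Ftl1*, *Ireb2*, *Ncoa4* and *Hmox1*), against 37.4% of all genes, 19.0% higher and 18.3% lower. For the members, median log2 fold changes were 0.11 in the former comparison and -0.08 in the latter, beside 0.09 and 0.00 over all genes. The libraries of the 2 groups did not overlap for 8 of the 10 members in each of these comparisons. The shares over all genes tested were 74% and 68.7%. In Control minus WT and in CypD OE minus WT 7 members did not overlap, against 62% and 64.5% of all genes. A lack of overlap was thus common, and it is given below as description only. In bulk RNA, fewer cells expressing a gene and less RNA per cell cannot be told apart.

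**Figure D1:**
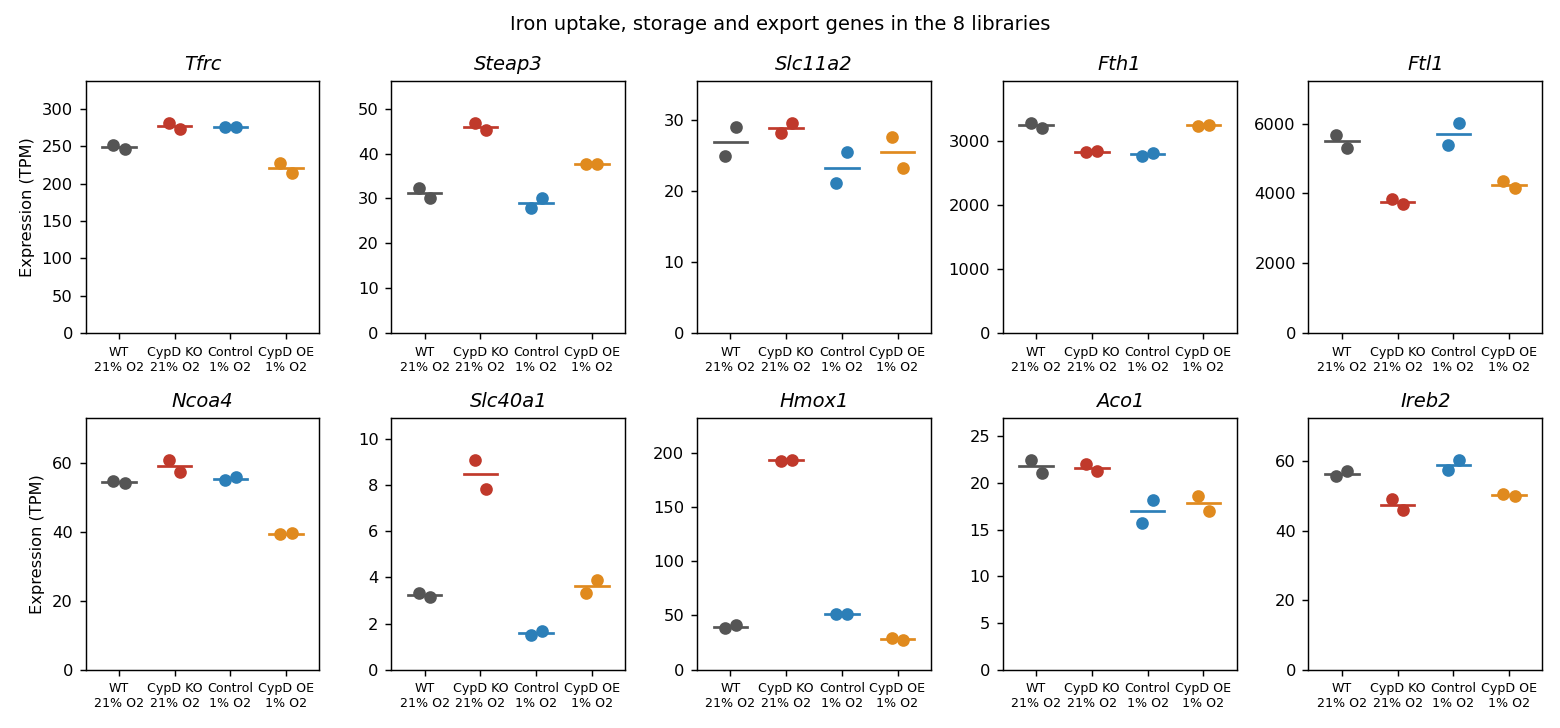
Expression (TPM, axes from 0) of the 10 iron genes in each of the 8 libraries, with points for libraries, horizontal lines for group means and 1 panel per gene. The CypD KO libraries stand far above the others for Hmox1 (192.10 and 193.46 TPM) and highest for Slc40a1. Slc11a2 libraries overlap between CypD KO and WT and between CypD OE and Control.

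**Figure D2:**
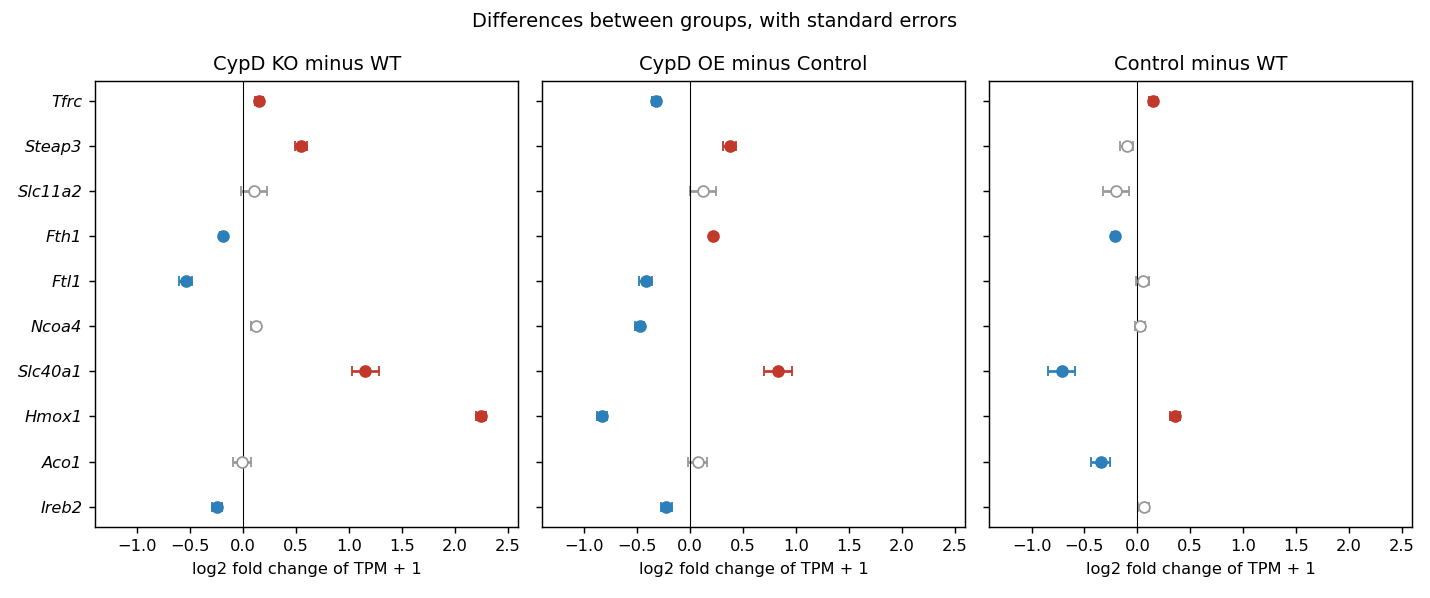
Log2 fold change of TPM + 1 (horizontal axis) of the 10 iron genes in 3 comparisons, with bars for the standard error, filled red points for genes called higher, filled blue points for genes called lower and open points for genes not called. Steap3 and Slc40a1 were higher and Ftl1 and Ireb2 lower in both CypD KO minus WT and CypD OE minus Control, whereas Hmox1, Tfrc and Fth1 were called in opposite directions.

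Among the uptake genes, the transferrin receptor gene *Tfrc* (chr16:32427556-32451612, plus strand) was read at 251.75 and 246.85 TPM in WT, 281.22 and 272.72 TPM in CypD KO, 276.04 and 276.24 TPM in Control and 227.93 and 214.25 TPM in CypD OE libraries. The libraries of CypD KO and Control lay together above WT, and those of CypD OE lay below all others. The difference between CypD OE and Control was -0.32 ± 0.037 on the log2 scale (SE, limma adjusted p = 8.6e-04) and remained called in every alternative run. The difference between CypD KO and WT was small, at 0.15 ± 0.037 (adjusted p = 0.0143). It was 0.04 after median-of-ratios rescaling (limma adjusted p = 0.389), and it was not called with eBayes without trend (adjusted p = 0.0638). It was also not called without WT replicate 2 (0.137) or without CypD KO replicate 1 (0.129).

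*Steap3* (chr1:120118487-120200435, minus strand), the endosomal ferric reductase, was at 32.32 and 30.07 TPM in WT and 46.81 and 45.15 TPM in CypD KO libraries, and at 27.90 and 30.08 TPM in Control and 37.77 and 37.78 TPM in CypD OE libraries. CypD KO and CypD OE libraries each lay above their partner group without overlap. The increase was 47.4% in CypD KO (log2 fold change 0.55 ± 0.06, adjusted p = 4.1e-04) and 30.3% in CypD OE cells (0.37 ± 0.06, adjusted p = 0.0035).

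*Slc11a2* (chr15:100285776-100322953, minus strand), which encodes the transporter DMT1, ranged from 21.16 to 29.62 TPM over the 8 libraries, and the 2 libraries of a group differed by up to 4.36 TPM. Its groups overlapped in both comparisons. The log2 fold changes, 0.10 ± 0.12 for CypD KO minus WT (adjusted p = 0.539) and 0.12 ± 0.12 for CypD OE minus Control (adjusted p = 0.475), were within their errors.

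Transcripts of the 2 ferritin chains made up 0.652% to 0.896% of all TPM. The heavy chain gene *Fth1* (chr19:9957911-9962462, plus strand) was at 3272.75 and 3195.89 TPM in WT, 2818.40 and 2830.62 TPM in CypD KO, 2763.60 and 2812.45 TPM in Control and 3232.09 and 3239.84 TPM in CypD OE libraries. WT and CypD OE libraries formed the higher pair of groups and CypD KO and Control libraries the lower pair. *Fth1* was therefore 12.7% lower in CypD KO than in WT cells (-0.20 ± 0.021, adjusted p = 3.95e-04) and 16.1% higher in CypD OE than in Control cells (0.21 ± 0.021, adjusted p = 4.2e-04).

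The light chain gene *Ftl1* (chr7:45107367-45109308, minus strand) was at 5684.49 and 5296.20 TPM in WT, 3846.65 and 3687.35 TPM in CypD KO, 5372.41 and 6015.82 TPM in Control and 4358.84 and 4148.38 TPM in CypD OE libraries. CypD KO and CypD OE libraries each lay below their partner group, by 31.4% in CypD KO (log2 fold change -0.54 ± 0.061, adjusted p = 4.4e-04) and by 25.3% in CypD OE cells (-0.42 ± 0.061, adjusted p = 0.0022). *Ftl1* has processed copies between which reads can be divided. The copy *Ftl1-ps1*, at 51.83 to 91.89 TPM, was the only ferritin copy with a mean of at least 1 TPM, and copies summed to 1.37% to 1.73% of *Ftl1* and at most 0.0498% of *Fth1*.

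Light chains are enriched in ferritin of iron-storing tissues and heavy chains carry the ferroxidase site, so the ratio of their mRNAs was computed in each library. *Ftl1* to *Fth1* was 1.737 and 1.657 in WT, 1.365 and 1.303 in CypD KO, 1.944 and 2.139 in Control and 1.349 and 1.28 in CypD OE libraries. The 4 CypD KO and CypD OE libraries thus lay below the other 4, with no overlap. *Tfrc* as a share of *Fth1*, an uptake gene over a storage gene, was 7.69% and 7.72% in WT, 9.98% and 9.64% in CypD KO, 9.99% and 9.82% in Control and 7.05% and 6.61% in CypD OE libraries. This ratio placed CypD KO with Control libraries and left CypD OE libraries lowest.

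**Figure D3:**
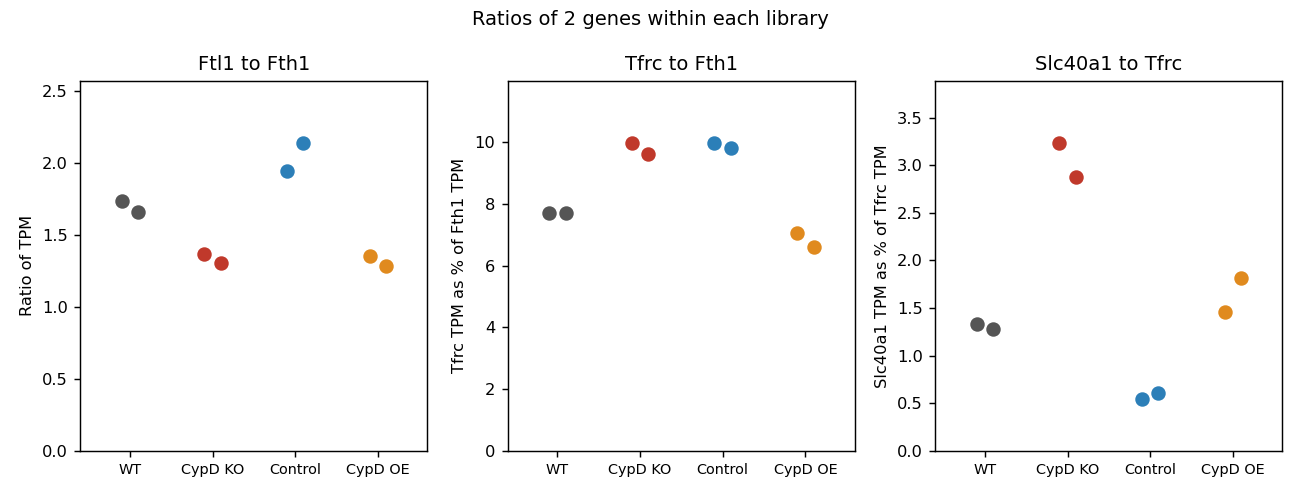
Ratios of 2 genes within each library (vertical axes from 0: ratio of TPM in the left panel, percent in the others), with 1 point per library. Ftl1 to Fth1 is at most 1.365 in CypD KO and CypD OE libraries and at least 1.657 in WT and Control libraries, and Slc40a1 to Tfrc is highest in CypD KO (3.24% and 2.88%) and lowest in Control libraries (0.547% and 0.605%).

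*Ncoa4* (chr14:31881822-31902234, plus strand), the cargo receptor for ferritin breakdown, was at 54.79 and 54.30 TPM in WT, 61.04 and 57.60 TPM in CypD KO, 55.09 and 55.97 TPM in Control and 39.33 and 39.83 TPM in CypD OE libraries. It was thus low in CypD OE libraries, 28.7% below Control by the means (-0.48 ± 0.045, adjusted p = 3.4e-04). The CypD KO libraries did not overlap with WT, but the difference missed the threshold (0.12 ± 0.045, adjusted p = 0.0674).

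Ferroportin, encoded by *Slc40a1* (chr1:45947211-45965683, minus strand), is the known cellular exporter of iron. Its mRNA was scarce, at 3.34 and 3.16 TPM in WT, 9.10 and 7.85 TPM in CypD KO, 1.51 and 1.67 TPM in Control and 3.32 and 3.90 TPM in CypD OE libraries, which corresponds to approximately 51 to 340 fragments. CypD KO libraries were highest and Control libraries lowest, and neither overlapped with its partner group. *Slc40a1* was 2.61-fold higher in CypD KO than in WT cells by mean TPM (log2 fold change of TPM + 1 1.15 ± 0.13, adjusted p = 4.46e-04), and 2.27-fold higher in CypD OE than in Control cells (0.83 ± 0.13, adjusted p = 0.003). With a pseudocount of 1 TPM these log2 values understate the change of a gene at this level. *Slc40a1* is also a gene of macrophages, whose summed markers were higher in CypD KO libraries through *Lyz2* (1.85 and 1.80 TPM), with *Adgre1*, *C1qa*, *C1qb* and *Cd14* at 0 in every library. *Zfp469* (root mean square difference of centred log2 values 0.102 over 8 libraries) and *9230114K14Rik* (0.109) had the patterns closest to that of *Slc40a1*.

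The gene with the largest difference among the members was *Hmox1* (chr8:75820241-75827217, plus strand), for the inducible enzyme that opens the heme ring and releases its iron. WT libraries held 38.84 and 40.77 TPM, while CypD KO libraries held 192.10 and 193.46 TPM. At 1% oxygen it was at 51.11 and 51.26 TPM in Control and 29.12 and 27.47 TPM in CypD OE libraries. *Hmox1* was thus 4.84-fold higher in CypD KO than in WT cells (log2 fold change 2.25 ± 0.047, adjusted p = 8.3e-07) and 44.7% lower in CypD OE than in Control cells (-0.83 ± 0.047, adjusted p = 3.8e-05). Both calls held in every alternative run. The fibroblast marker sum given above had the same order of groups, through *Postn* at 34.77 and 31.22 TPM in CypD KO and at most 9.11 TPM in other libraries, while *Col1a2* was lower in CypD KO than in WT libraries, and the part of such cells in the result was not tested. On the log2(TPM + 1) scale, *Ltbp1* (root mean square difference 0.094) and *Cd109* (0.136) followed *Hmox1* most closely over the 8 libraries. *Cd109* was at 30.74 and 31.38 TPM in WT and 154.4 and 146.94 TPM in CypD KO libraries. *Ltbp1* was scarce, at 5.18 and 5.86 TPM in CypD KO and at most 0.85 TPM in other libraries. At such levels the pseudocount of 1 TPM shrinks its changes, so the match does not hold for TPM ratios.

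*Hmox1* is known for antioxidant response elements far upstream of its start, which NRF2 activates and the heme sensor BACH1 represses. The core of such an element, TGACNNNGC on either strand, occurred 11 times in the 10000 bases upstream of *Hmox1*, against a median of 3 over all genes. The stretch printed here lies 9568 bases before the start site and shows 3 matches that lie close together, each in capitals and read on the opposite strand. At least 3 matches within a stretch of 300 of those bases were present for 1.99% of 21583 genes.
Hmox1 upstream, chr8:75810547-75810672, plus strand, GRCm39: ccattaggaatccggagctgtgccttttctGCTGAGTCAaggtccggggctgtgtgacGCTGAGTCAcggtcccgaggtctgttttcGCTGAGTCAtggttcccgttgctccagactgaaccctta

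Within the 250 bases before to 50 bases after their start sites, none of the 10 members held this core, which 12.5% of all promoters held. The core bound by hypoxia-inducible factors has 2 forms, ACGTG and GCGTG, searched on both strands. Matches that overlap on opposite strands were counted separately, so 2 matches need not be 2 separate sites. ACGTG occurred 2 times in *Hmox1* and 1 time each in *Tfrc* and *Ncoa4*, and was present in 20.8% of all promoters. GCGTG occurred 2 times each in *Tfrc* and *Slc11a2* and 1 time each in *Fth1*, *Ftl1*, *Aco1* and *Ncoa4*, and was present in 37.1% of all promoters. These matches are descriptions of letters, and no binding was measured.

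Other genes of the NRF2 and BACH1 pathway were described beside *Hmox1*. In CypD KO against WT cells 2 of the 14 targets and regulators in the list were higher and 5 lower (median log2 fold change -0.05), against 30.1% and 18.4% of all genes. The 7 of 14 called were near the 48.4% of all genes called. The lower genes included *Nqo1*, a quinone reductase, at 6.96 TPM in WT and 3.11 TPM in CypD KO cells by the means (-0.95 ± 0.155), and *Txnrd1*, a thioredoxin reductase, which fell by 31.8%. In CypD OE against Control cells 10 of 14 were higher and 1 was lower (median 0.54), against 19.0% and 18.3% of all genes. *Slc7a11*, the cystine importer, was at 1.68 and 1.40 TPM in Control and 31.04 and 28.83 TPM in CypD OE libraries (3.61 ± 0.098, adjusted p = 1.7e-06), and *Osgin1*, an oxidative stress response gene, rose 4.40-fold. WT libraries held *Slc7a11* at 8.82 and 9.69 TPM. *Hmox1*, which is not in the list, was higher in CypD KO and lower in CypD OE cells than in their partner groups. The list holds regulators as well as targets, so its counts do not give a direction of the pathway. What changed *Hmox1* was not tested. In Control against WT cells, which shares the Control libraries, 9 of the 14 were lower (median -0.49), against 12.1% of all genes, while *Hmox1* was higher. In CypD OE against WT cells 5 of the 14 were higher and 3 lower (median 0.13), against 14.0% and 13.7% of all genes. Of the regulators, looked up after the values were seen, *Bach1* fell from 16.35 and 17.55 TPM in WT to 12.42 and 11.93 TPM in CypD KO libraries (-0.45 ± 0.075, adjusted p = 0.0027). *Bach1* was not called in CypD OE minus Control (0.16 ± 0.075, limma adjusted p = 0.14) or in Control minus WT (-0.19 ± 0.075, adjusted p = 0.111). *Nfe2l2*, encoding NRF2, was at 133 TPM in WT and 133.6 TPM in CypD KO cells and fell in CypD OE cells (-0.39 ± 0.043, adjusted p = 6.6e-04). *Keap1* and *Mafg* were not called in CypD KO minus WT (0.008 ± 0.093 and 0.088 ± 0.074). Both were higher in CypD OE than in Control cells (0.46 ± 0.093 and 0.336 ± 0.074).

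Of the iron sensors, *Ireb2* (chr9:54770970-54820011, plus strand), encoding IRP2, was at 55.78 and 57.14 TPM in WT, 49.05 and 45.86 TPM in CypD KO, 57.48 and 60.47 TPM in Control and 50.68 and 49.92 TPM in CypD OE libraries. Again CypD KO and CypD OE libraries were below their partner groups without overlap, with log2 fold changes of -0.25 ± 0.051 in CypD KO (adjusted p = 0.0068) and -0.22 ± 0.051 in CypD OE cells (adjusted p = 0.0133). The latter was not called without Control replicate 2 (adjusted p = 0.0733) or without CypD OE replicate 2 (adjusted p = 0.0652). *Aco1* (chr4:40142998-40199010, plus strand), encoding IRP1, was at 22.50 and 21.11 TPM in WT, 22.00 and 21.32 TPM in CypD KO, 15.77 and 18.16 TPM in Control and 18.64 and 17.03 TPM in CypD OE libraries. CypD KO libraries overlapped with WT (-0.01 ± 0.087, adjusted p = 0.946) and CypD OE libraries overlapped with Control (0.07 ± 0.087, adjusted p = 0.573). The 4 libraries at 1% oxygen lay below the 4 at 21% oxygen. They also carry a plasmid and were selected with G418, which cannot be told apart from oxygen. The difference between CypD OE and WT was not called (-0.28 ± 0.087, limma adjusted p = 0.0561).

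Control against WT, the comparison in which oxygen and plasmid changed together, gave calls for 5 members, 2 higher and 3 lower, where 24.2% of all genes were called, 12.1% in each direction. *Slc40a1* was lower in Control (-0.71 ± 0.13, adjusted p = 0.0092), as were *Fth1* (-0.21 ± 0.021, adjusted p = 8.8e-04) and *Aco1* (-0.35 ± 0.087, adjusted p = 0.03), while *Hmox1* was higher (0.36 ± 0.047, adjusted p = 0.0027), as was *Tfrc* (0.15 ± 0.037, adjusted p = 0.0311). The calls of *Tfrc* and *Aco1* were lost in several alternatives, so that 3 members were called when either WT library or Control replicate 1 was left out. Those of *Fth1*, *Slc40a1* and *Hmox1* held throughout.

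CypD OE was also set against WT, which shares libraries with the comparisons above and again changes oxygen together with the plasmid. Here 5 members were called, *Steap3* as higher and *Tfrc*, *Ftl1*, *Ncoa4* and *Hmox1* as lower, against 27.7% of all genes, 14.0% higher and 13.7% lower. *Fth1* (0.00 ± 0.021, adjusted p = 0.984) and *Slc40a1* (0.11 ± 0.13, adjusted p = 0.557) were within their errors of WT. The calls of *Steap3* (without WT replicate 2 or either CypD OE library, adjusted p from 0.0737 to 0.0852) and *Tfrc* (without WT replicate 1 or CypD OE replicate 2, or with eBayes without trend, adjusted p from 0.0658 to 0.0772) were lost in 3 alternatives each. In order of level, with neighbours called different at an adjusted p under 0.05, *Hmox1* differed between all neighbouring groups, from CypD KO through Control and WT to CypD OE. For *Slc40a1* the neighbours CypD OE and WT were not called different, for *Tfrc* CypD KO and Control, for *Fth1* CypD OE and WT as well as CypD KO and Control, and for *Ftl1* Control and WT as well as CypD OE and CypD KO, although the libraries of the last pair did not overlap (0.17 ± 0.061, adjusted p = 0.0502). *Ncoa4* was called different only between WT and CypD OE, *Aco1* only between CypD KO and CypD OE, and *Steap3* at each step except between WT and Control. For *Slc11a2* and *Ireb2* no neighbours were called different, but WT libraries lay above CypD OE libraries for *Ireb2* without overlap (0.16 ± 0.051, adjusted p = 0.054), a difference called with median-of-ratios rescaling (adjusted p = 0.0217) or a filter of 5 TPM (adjusted p = 0.0465).

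The other iron and heme genes were followed in lists of 103 genes, NRF2 and BACH1 genes included, of which 83 passed the filter. In CypD KO against WT cells 29 were higher and 17 lower, and in CypD OE against Control cells 27 were higher and 12 lower, with medians of 0.09 and 0.05 against 0.09 and 0.00 over all genes. The shares of all genes called, 48.4% and 37.4%, are the background for each list below.

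Of 9 tested genes for uptake and endosomal release of iron, 6 were higher and 1 lower in CypD KO than in WT cells (median 0.45), where 30.1% of all genes were higher and 18.4% lower. *Frrs1*, a ferric reductase, was at 27.35 and 23.29 TPM in WT and 52.42 and 47.87 TPM in CypD KO libraries (0.96 ± 0.132, adjusted p = 0.0011). *Mcoln1*, a lysosomal cation channel that passes iron, rose 1.92-fold. In CypD OE against Control cells 3 were higher and 3 lower (median 0.11), against 19.0% and 18.3% of all genes. *Steap2*, a metalloreductase related to STEAP3, rose by 65.0% and *Trf*, the iron carrier transferrin, fell by 39.9%, from 108.45 and 125.23 TPM in Control to 68.10 and 72.46 TPM in CypD OE libraries.

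In the list of storage, ferritin breakdown and iron chaperones, 3 of 8 tested genes were higher and 1 lower in each comparison, so that 4 of 8 were called where 48.4% (CypD KO minus WT) and 37.4% (CypD OE minus Control) of all genes were. *Tax1bp1*, an autophagy receptor that acts with NCOA4, rose from 171.62 and 172.25 TPM in WT to 291.05 and 289.25 TPM in CypD KO libraries (0.75 ± 0.029, adjusted p = 5.3e-06) and by 18.7% in CypD OE cells. *Lamp2*, a lysosomal membrane protein gene, rose by 32.4% in CypD KO cells. *Pcbp2*, encoding an iron chaperone, fell by 18.7% in CypD OE cells. List medians were 0.33 in CypD KO minus WT and 0.04 in CypD OE minus Control.

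Of the 9 genes listed for export and systemic control, 3 were at 0 in every library and 2 passed the filter. *Cp*, for ceruloplasmin, the ferroxidase that acts beside ferroportin, was at 17.41 and 19.53 TPM in WT and 41.44 and 37.13 TPM in CypD KO libraries (1.05 ± 0.108, adjusted p = 3.0e-04). It was at 52.99 and 46.23 TPM in Control and 12.83 and 14.88 TPM in CypD OE libraries (-1.77 ± 0.108, adjusted p = 5.5e-05). *Cp* therefore rose with *Slc40a1* in CypD KO cells and fell in CypD OE cells, where *Slc40a1* rose. *Fbxl5*, the iron-sensing ligase subunit that targets IRP2, rose by 40.6% in CypD KO cells.

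For heme degradation and transport, all 8 tested genes passed in CypD KO against WT cells, 5 higher and 3 lower, where 48.4% of all genes passed. *Abcg2*, a transporter that also exports heme and porphyrins, stood at 16.77 and 16.45 TPM in WT and 66.80 and 70.02 TPM in CypD KO libraries (1.98 ± 0.083, adjusted p = 7.2e-06). *Blvrb*, a biliverdin reductase, fell from 19.23 and 19.13 TPM in WT to 6.13 and 7.13 TPM in CypD KO libraries (-1.41 ± 0.091), and rose from 3.87 and 3.93 TPM in Control to 19.64 and 20.86 TPM in CypD OE libraries (2.12 ± 0.091). It was thus called in the direction opposite to *Hmox1* in both comparisons. *Flvcr1*, a heme exporter, rose by 45.5% in CypD OE against Control cells, where 4 of the 8 were higher and 1 lower, against 19.0% and 18.3% of all genes. *Flvcr1* was not called in CypD OE minus WT (0.006 ± 0.054).

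For heme synthesis, 4 of 10 tested genes were higher and 2 lower in CypD KO cells, and 2 were higher and 2 lower in CypD OE cells. The 6 and 4 called genes of 10 stood beside 48.4% and 37.4% of all genes. *Alas1*, the first and rate-limiting enzyme, rose from 49.72 and 50.41 TPM in WT to 79.07 and 83.53 TPM in CypD KO libraries (0.69 ± 0.068, adjusted p = 2.6e-04). *Slc25a38*, the mitochondrial glycine carrier, fell by 38.4% in CypD KO against WT cells and rose by 45.7% in CypD OE against Control cells. It was not called in CypD OE minus WT (0.032 ± 0.083). *Ppox* fell by 49.2% in CypD OE cells, a call that was lost when any 1 of the 4 libraries was left out (adjusted p from 0.0534 to 0.0565).

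Of 28 mitochondrial iron import and iron-sulfur cluster genes, 5 were higher and 4 lower in CypD KO cells, and 3 were higher and 2 lower in CypD OE cells, with medians of 0.02 and 0.01. The 9 and 5 called genes of 28 stood beside 48.4% and 37.4% called among all genes. *Nfs1*, the desulfurase that supplies sulfur, rose by 52.9% in CypD KO cells. In CypD OE cells *Nubp1* rose by 33.0% and *Ciao2b* fell by 20.9%, both genes of cytosolic cluster assembly, the latter a call lost without Control replicate 2 (adjusted p = 0.0571). Of 4 tested mRNAs with other known iron-responsive elements, 2 were higher and 1 lower in each comparison, a count too small to set against the shares of all genes. *Epas1*, encoding HIF-2α, rose from 2.01 and 2.59 TPM in Control to 6.19 and 6.20 TPM in CypD OE libraries (1.13 ± 0.144, adjusted p = 0.0013). WT libraries held it at 5.90 and 5.22 TPM, and CypD OE minus WT was not called (0.135 ± 0.144, limma adjusted p = 0.533). *Cdc42bpa*, a kinase gene, rose in CypD KO (0.40 ± 0.057) and in CypD OE cells (0.30 ± 0.057). *Cdc14a*, a phosphatase gene, was lower in CypD KO cells (-0.41 ± 0.114, adjusted p = 0.0234), a call lost without any 1 of the 4 libraries.

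**Figure D4:**
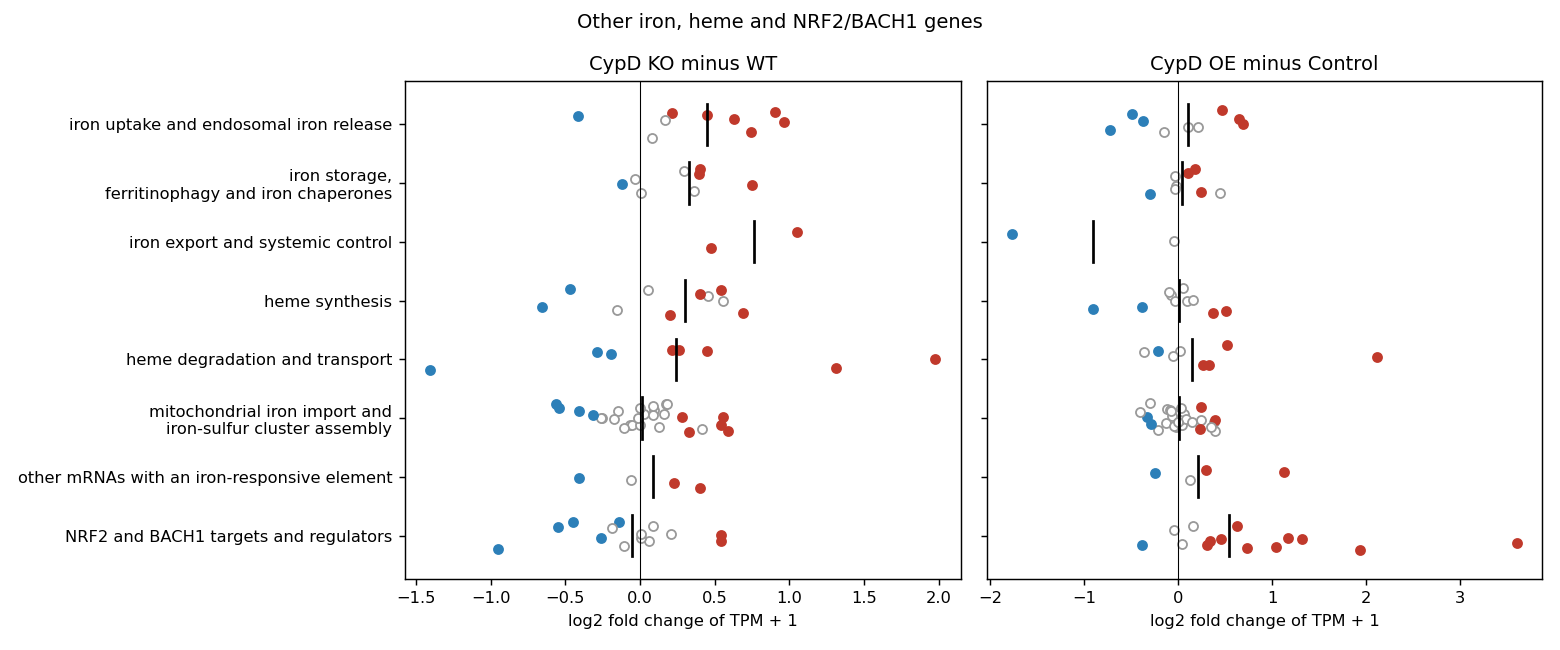
Log2 fold change of TPM + 1 (horizontal axes) of each tested gene in 8 lists (rows), for CypD KO minus WT and CypD OE minus Control, with red points called higher, blue points called lower, open points not called and black bars at list medians. NRF2 and BACH1 genes lie mostly to the right in CypD OE minus Control (median 0.54), where Slc7a11 is the point farthest right at 3.61.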

How the data were processed

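Total RNA of 8 libraries was depleted of ribosomal RNA and sequenced in paired-end reads of 150 bases. The authors used Cutadapt 3.4, STAR 2.7.8a with Ensembl GRCm39 and RSEM 1.3.1, and deposited TPM values to 2 decimals. Their own tests used read counts and DESeq2 1.26.0, and counts were not used here.

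The 13526 genes that reached 1 TPM in 2 or more libraries were put on a log2(TPM + 1) scale and tested by limma 3.58.1 (R 4.3.3), with a mean for each of 4 groups over all 8 libraries and eBayes with a trend. Tests were two-sided with Benjamini-Hochberg adjustment over the genes tested and a threshold of 0.05. With 2 libraries per group, exact permutation could not reach a p under 0.333. Nothing states that replicates were separate cultures, so p-values measure only the spread between these libraries. Replicate 1 is the library without a suffix in its name.

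The members and lists were chosen with earlier results of these data known. Named genes are the members, the 2 called genes of each list with the largest change in either main comparison, the 2 genes closest in pattern to members whose group means span at least 1 on the log2 scale, and ferritin copies with a mean of at least 1 TPM. One gene that this rule names is not reported here. Alternatives were a pseudocount of 0.1 TPM, no filter, median-of-ratios rescaling, a filter of 5 TPM, rescaling without the 50 most abundant genes, fits of 4 libraries, a replicate block, eBayes without trend, added ferritin copies and leaving out each replicate. The tests and the depth estimate were checked on simulated data.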

Additional observations from a re-analysis of the deposited data

How the results depend on the processing

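Most results kept their direction and their side of the threshold. Of 520 recomputed member differences 480 did so, while 24 lost the threshold, 4 gained it and 12 changed sign, all of the last in differences that were not called. Of 403 recomputed differences of named list genes, 393 kept theirs and 10 lost the threshold. Median-of-ratios rescaling moved *Slc11a2* to -0.01 for CypD KO minus WT and *Fth1* to -0.026 for CypD OE minus WT. Without a filter, members called in Control minus WT fell from 5 to 3. Leaving out each replicate gave 3 to 4 members called in Control minus WT (3 without WT replicate 1, WT replicate 2 or Control replicate 1) and 3 to 4 of 5 in CypD OE minus WT (3 without CypD OE replicate 2). Under the same omissions *Slc11a2* ranged from -0.004 to 0.205 (CypD KO minus WT), -0.004 to 0.253 (CypD OE minus Control) and -0.199 to 0.039 (CypD OE minus WT). *Aco1* ranged from -0.053 to 0.035 and -0.026 to 0.166 in the former pair of comparisons, *Ftl1* from -0.03 to 0.133 in Control minus WT and *Fth1* from -0.016 to 0.018 in CypD OE minus WT. A lone sample was then assumed to vary like the other groups. The causes were not tested, beyond the fewer libraries or larger number of genes tested.

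With a replicate block, 7 members were called for CypD KO minus WT, 8 for CypD OE minus Control, 4 for Control minus WT and 5 for the comparison of CypD OE with WT. The only member call it ended was *Aco1* in Control minus WT (-0.347, limma adjusted p = 0.0514). Deviations of same-numbered libraries correlated at 0.108, -0.002, -0.019 and -0.009, with only 2 pairs per comparison, so the numbers were not taken to pair the libraries. Counts of called genes in the 8 lists stayed within 1.5 times under the 4 alternatives run on them. TPM carries no count, and genes near 1 TPM rest on few fragments.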
